A study of Homo sapiens with 8 samples.

Results

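The BCL2 family genes described here are 10 regulators of apoptosis, taken by name from a table of 58233 genes: the effectors BAX and BAK1, the BH3-only genes BBC3, PMAIP1, BCL2L11, BID and BIK, and the anti-apoptotic genes BCL2, BCL2L1 and MCL1. They were measured by RNA-seq in MCF10A-H-Ras cells, a non-tumorigenic human breast epithelial line that had been transformed with the H-Ras oncogene, so that the controls carry the oncogene too. There were 4 groups: control (WT) cells and RBM6-KO1 cells, hereafter knockout cells, each either left untreated or collected after 12 h of recovery from 5 Gy of ionizing radiation (IR), with 2 biological replicates, named A and B, in each group and 8 libraries in all. RBM6 is an RNA-binding splicing factor, RBM6-KO1 is 1 knockout clone grown from a single sorted cell, and the study asked what the loss of RBM6 does to gene expression before and after DNA damage. A difference between knockout and control cells therefore cannot be told apart from a difference between this clone and its parental population. All 10 genes passed the filter on low counts in all 5 tests.

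The family acts at the outer membrane of the mitochondrion. BAX and BAK1, once active, assemble into pores that release cytochrome c and start the caspase cascade. BCL2, BCL2L1 (whose main product is BCL-xL) and MCL1 hold them in check, and the BH3-only proteins, each through a short helix called the BH3 domain, bind the anti-apoptotic proteins or activate BAX and BAK1 directly. BBC3 (PUMA), PMAIP1 (NOXA) and BAX are textbook targets of p53, the transcription factor that responds to the DNA breaks left by IR, while much of the control of BCL2L11 (BIM), BID, MCL1 and BAX takes place after transcription, where RNA counts do not reach.

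The core of the BH3 domain is what the 10 genes share in sequence, and it shows how effectors, BH3-only proteins and anti-apoptotic proteins carry versions of the same element. A leucine codon, 3 codons of any kind, a glycine or alanine codon and an aspartate codon were searched for in the coding sequence of the canonical GENCODE v44 transcript of each gene, and this pattern was found exactly once in each of the 10. The 18 coding bases are shown in capitals on the coding strand, with 6 coding bases on each side in lower case, and with the position of the capitals in hg38 and the exon of that transcript.
BAX, chr19:48955787-48955804, plus strand, exon 3: gagtgtCTCAAGCGCATCGGGGACgaactg
BAK1, chr6:33575399-33575416, minus strand, exon 4: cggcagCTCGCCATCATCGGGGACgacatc
BBC3, chr19:47226591-47226608, minus strand, exon 3: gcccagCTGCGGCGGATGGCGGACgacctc
PMAIP1, chr18:59902673-59902690, plus strand, exon 2: actcaaCTCAGGAGATTTGGAGACaaactg
BCL2L11, chr2:111150103-111150120, plus strand, exon 3: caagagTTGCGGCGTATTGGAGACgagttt
BID, chr22:17739427-17739444, minus strand, exon 4: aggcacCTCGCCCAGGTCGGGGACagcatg
BIK, chr22:43127716-43127733, plus strand, exon 3: ctgcggCTGGCCTGCATCGGGGACgagatg
BCL2, chr18:63318361-63318378, minus strand, exon 2: ctgaccCTCCGCCAGGCCGGCGACgacttc
BCL2L1, chr20:31721934-31721951, minus strand, exon 2: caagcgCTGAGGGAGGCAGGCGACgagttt
MCL1, chr1:150578877-150578894, minus strand, exon 1: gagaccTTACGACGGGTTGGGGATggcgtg
The pattern is short and loose, and 4898 of 19811 canonical proteins (24.7%) hold it at least once, 3707 of them exactly once. The encoded proteins run from 54 residues for PMAIP1 to 350 for MCL1.

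Since several members are p53 targets, the promoter windows were searched for the p53 half-site consensus on both strands. In RefSeq (GRCh38.p14), 8 of the 10 genes have a window of 250 bases before to 50 after a transcription start, and MCL1 and BIK have none in the table used. Only BAK1 held a match, 73 bases before its start, shown here in capitals with 10 bases on each side, on the minus strand at chr6:33580340-33580349.
BAK1 half-site: aaagtgggcgGGACATGCTCctgggcctgg
Of 35116 windows of this kind, 2329 (6.6%) held a half-site, and full p53 elements that lie further from the start, such as in introns, are outside the windows.

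The libraries held 15355281 to 29832009 counts on genes, and 3 counts, the upper limit that a count of 0 allows, correspond to 0.0965 to 0.204 normalized CPM (counts scaled to library size after TMM normalization). These limits cover counting error only. The rarest member, BCL2, had 56 to 155 counts per library and MCL1 had 14472 to 60972. All 10 breast epithelial markers were detected, and of 12 markers of other cell types PGR, PTPRC, CD3E and COL1A2 were at 3 counts or fewer in all 8 libraries. The summed level of these 12 ran from 95.1 to 120.0 normalized CPM in control libraries and from 130.0 to 219.9 in knockout libraries. Most of that sum was the fibroblast gene DCN, which had a mean of 68.0 to 86.2 normalized CPM in control cells and 128.4 to 185.5 in knockout cells. Not all of the 12 were higher there: another fibroblast gene, COL1A1, had log2 fold changes of -0.74 (adjusted p = 0.0864) and -1.17 (adjusted p = 0.0612) in knockout against control cells before and after IR, and the monocyte gene CD14 had -1.81 (adjusted p = 0.000373) and -1.19 (adjusted p = 0.0585). The epithelial adhesion gene EPCAM had a mean of 20.6 to 24.04 normalized CPM in control cells and 5.81 to 7.02 in knockout cells. The epithelial markers did not all move this way. In untreated knockout against control cells KRT14 had a log2 fold change of 0.78 (adjusted p = 0.0156) and KRT18 one of -0.63 (adjusted p = 0.0175). KRT5 and KRT6A had 0.04 and -0.01. The part of such differences in the results below was not tested. RBM6 mRNA itself had a mean of 67.8 normalized CPM in untreated control cells and 62.3 in untreated knockout cells, and 51.7 and 38.9 after IR, and it was not called between genotypes, so these counts give no check of the knockout, which was made at the DNA level. In every comparison log2 fold changes were lower for genes richer in GC (Spearman's rho from -0.315 to -0.237 across 15309 to 15489 genes, which are not independent replicates).

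Per length of exon, MCL1 was by far the most abundant member in every group. It had 239.6 ± 0.406 normalized RPKM (SD, n = 2) in untreated control cells, against 55.01 ± 8.03 for BAX, 43.96 ± 2.50 for BCL2L1 and 27.4 ± 0.441 for BAK1. Both effectors were therefore well expressed at the RNA level, while the BH3-only genes formed a lower tier. In the same cells BID stood at 11.7 ± 0.561 normalized RPKM, BIK at 8.23 ± 0.237, BBC3 at 5.48 ± 0.506, PMAIP1 at 2.12 ± 0.0169 and BCL2L11 at 1.25 ± 0.283. BCL2, the founding member of the family, was lowest at 0.347 ± 0.0984.

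**Figure D1:**
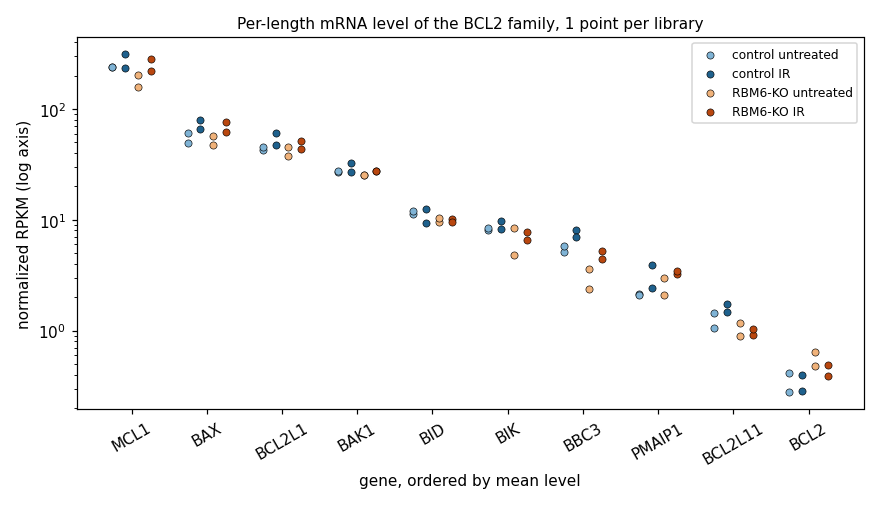
Normalized RPKM (log axis) of each gene, with 1 point for each of the 8 libraries and colours for the 4 groups, ordered by mean level. MCL1 lies at the top in every library and BCL2 at the bottom, and no shift between groups changes the order of their means.

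The order of the 10 group means was the same in all 4 groups. Neighbours in that order did not overlap between libraries except BID and BIK in control cells after IR and BBC3 and PMAIP1 in untreated knockout cells. Levels per length depend on the length used: with the longest transcript in place of all exons, BIK and BBC3 changed places in 3 of the 4 groups. Among the anti-apoptotic genes, MCL1 made up 84.4% ± 0.794 of the summed normalized RPKM in untreated control cells and 80.9% ± 4.70 in untreated knockout cells. BCL2 made up 0.122% ± 0.0337 and 0.249% ± 0.0198. Among the effectors, BAX took 66.6% ± 2.90 in untreated control cells and 67.2% ± 2.95 in untreated knockout cells, and 70.9% ± 0.139 and 71.3% ± 2.88 after IR.

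Without IR, most of the family had similar levels in knockout and control cells, and BBC3 was the member that stood lowest against control. A gene was called when its Benjamini-Hochberg adjusted p over all tested genes was under 0.05 in edgeR's quasi-likelihood test and it changed at least 2-fold. None of the 10 genes was called in untreated knockout cells (3.12% of 15556 genes were), nor by DESeq2, and 3 had an unadjusted p under 0.05, beside 18.4% of all genes. Their log2 fold changes ran from -0.90 to 0.67, with a median of -0.19 beside 0.01 over all genes, and 8 of 10 were below 0. For 8 of the 10 the 95% interval lay inside a 2-fold change in either direction.

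**Figure D2:**
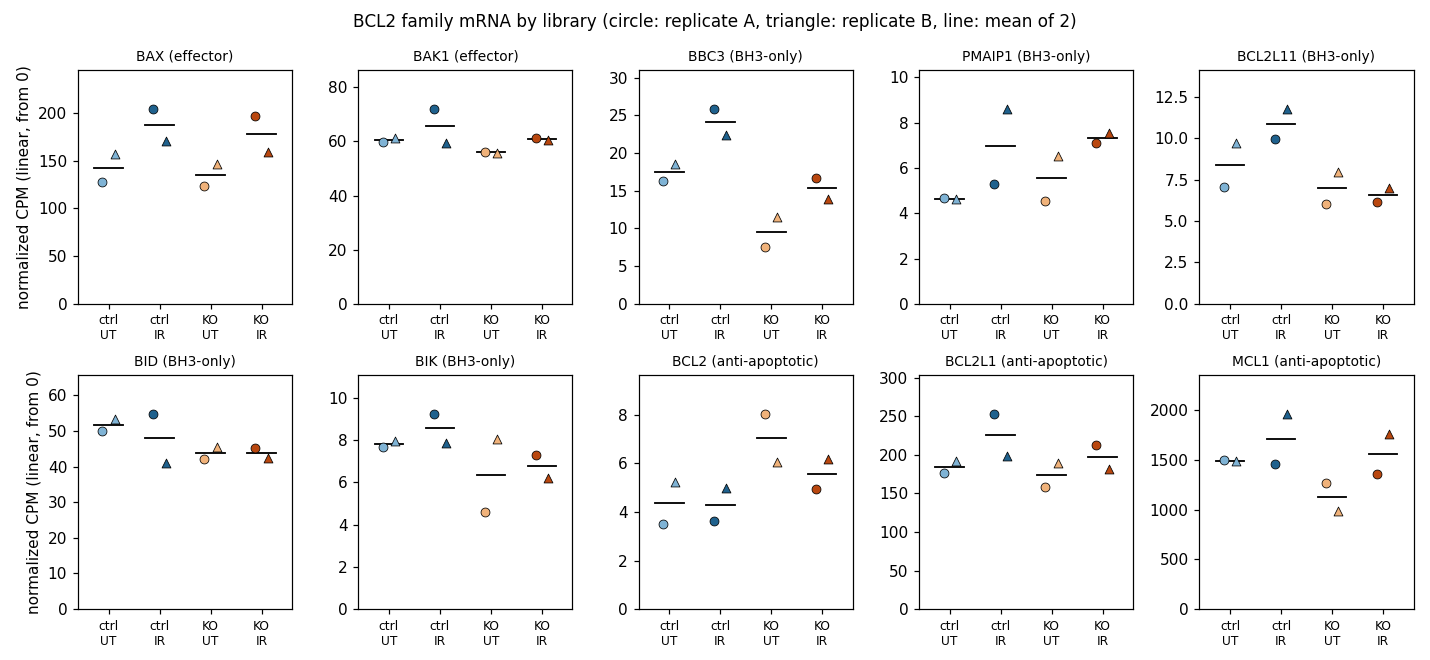
Normalized CPM (linear axis from 0) of each gene in each library, with circles for replicate A, triangles for replicate B and a line at the mean of 2 (ctrl: control, KO: RBM6-KO1, UT: untreated). BBC3 in knockout cells lies below control cells at the same treatment in both replicates, and of the other 9 genes BAX, PMAIP1 and BCL2L1 overlap between genotypes at both treatments.

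The effectors were close between the genotypes. BAX had 128 and 157.0 normalized CPM in untreated control cells and 123 and 147 in untreated knockout cells, so the groups overlapped. Its log2 fold change was -0.09 (SE 0.15, adjusted p = 0.827). BAK1 had 60.0 and 61.3 against 56.3 and 55.6, and although these did not overlap, the log2 fold change was -0.13 (SE 0.15, adjusted p = 0.738).

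Among the BH3-only genes, BBC3, which encodes the strong apoptosis inducer PUMA, had 16.3 and 18.6 normalized CPM in untreated control cells and 7.53 and 11.5 in untreated knockout cells. Both knockout libraries were lower than both control libraries. The log2 fold change was -0.90 (SE 0.23, 95% interval -1.38 to -0.42, adjusted p = 0.0237), a fold of 0.537, so BBC3 fell by the adjusted p alone, which 6.12% of genes passed in either direction and 3.73% as lower, but stayed short of the 2-fold limit. It was the only member to pass the adjusted p. DESeq2 gave an adjusted p of 0.0363.

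That result depended on single libraries and on the fit. Without replicate A of untreated knockout cells the log2 fold change of BBC3 was -0.63 (adjusted p = 0.140), without replicate B of untreated control cells the adjusted p was 0.0755, and with all 8 libraries in 1 fit it was 0.0710. Without replicate B of untreated knockout cells it was -1.21 (adjusted p = 0.00062), past both limits. BBC3 has the highest GC content of the 10 genes, 69.7% of its longest transcript and above 99.6% of tested genes. With the trends in GC content and length removed its log2 fold change was -0.62.

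PMAIP1, which encodes the p53-inducible MCL1 antagonist NOXA, had a fold change above 0. It stood at 4.66 and 4.61 normalized CPM in untreated control cells and 4.55 and 6.52 in untreated knockout cells, a log2 fold change of 0.24 (SE 0.28, adjusted p = 0.741). BCL2L11 had 7.05 and 9.75 in control cells and 6.02 and 7.95 in knockout cells (log2 fold change -0.29, SE 0.26, adjusted p = 0.627), again with overlap, and leaving out 1 library gave -0.50 to -0.02. BID, cleaved by caspase-8 to link death receptors to mitochondria, had a log2 fold change of -0.25 (SE 0.16, adjusted p = 0.435) with no overlap, and BIK, an ER-resident BH3-only protein, had -0.33 (SE 0.27, adjusted p = 0.600) with 4.61 and 8.08 in knockout cells on either side of 7.66 and 7.98 in control cells.

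Of the anti-apoptotic genes, BCL2 had a fold change above 0 and MCL1 one below 0, and neither passed. BCL2 had 3.49 and 5.25 normalized CPM in untreated control cells and 8.04 and 6.05 in untreated knockout cells, a log2 fold change of 0.67 (SE 0.28, 95% interval 0.08 to 1.27, adjusted p = 0.204), and leaving out 1 library gave 0.41 to 1.01. MCL1, whose short-lived protein binds NOXA and BIM, had 1493 and 1489 in control cells and 1268 and 983 in knockout cells, a log2 fold change of -0.42 (SE 0.15, adjusted p = 0.126). In both cases the groups did not overlap and the adjusted p was not under 0.05. Without the filter on low counts the adjusted p of MCL1 was 0.0263, and without replicate A of untreated knockout cells it was 0.000391 with a log2 fold change of -0.63, whereas without replicate B of untreated knockout cells the log2 fold change was -0.23 (adjusted p = 0.331) and without either control library the adjusted p was 0.406 or 0.624. BCL2L1 overlapped between genotypes (log2 fold change -0.10, SE 0.14, adjusted p = 0.796), while the 419 tested genes of its chromosome, 20, had a median of -0.27. In all, 5 of the 10 genes did not overlap between the genotypes (4 lower, 1 higher), beside 47.7% of all genes (23.9% lower, 23.8% higher).

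**Figure D3:**
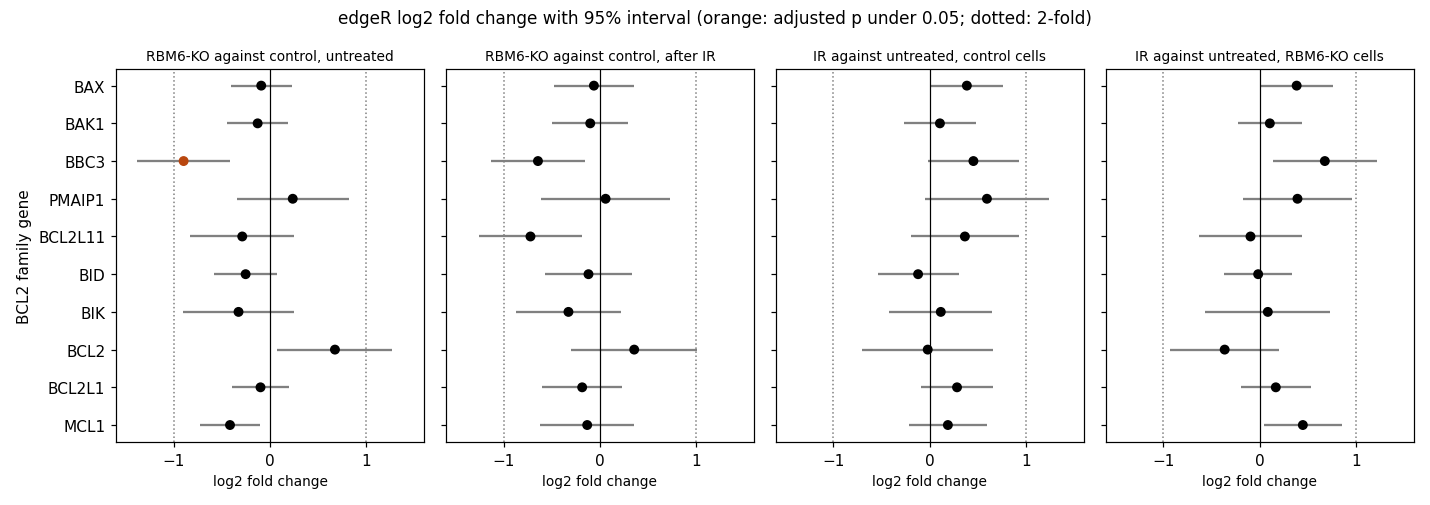
Log2 fold change of each gene (points, edgeR) with its 95% interval (lines) in the 4 comparisons; dotted lines mark a 2-fold change and orange marks an adjusted p under 0.05. BBC3 in untreated cells is the single orange point, and BBC3 and BCL2L11 are the lowest points after IR.

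After IR, BBC3 and BCL2L11 were the members furthest below control in knockout cells, and neither passed the adjusted p in the fit without a replicate block. With the replicate letter as a block both passed it (0.0048 and 0.0143), though the labels do not say that the letters mark shared cultures. None of the 10 genes was called by edgeR (1.17% of 15587 genes were, and 1.21% passed the adjusted p alone) or by DESeq2, and 2 had an unadjusted p under 0.05, beside 11.1% of all genes. The median of the 10 log2 fold changes was -0.13 beside 0.02 over all genes, with 8 below 0, and for 7 of them the 95% interval lay inside a 2-fold change.

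BBC3 had 25.9 and 22.3 normalized CPM in control cells after IR and 16.7 and 13.9 in knockout cells after IR. The groups did not overlap, as before IR, and the log2 fold change was -0.64 (SE 0.21, 95% interval -1.13 to -0.16, adjusted p = 0.276), or -0.42 with the trends in GC content and length removed. BCL2L11 had 9.96 and 11.8 in control cells and 6.18 and 6.997 in knockout cells, a log2 fold change of -0.72 (SE 0.23, 95% interval -1.25 to -0.19, adjusted p = 0.265). Its exons share 727 bases with the antisense gene MIR4435-2HG, which had 386 to 919 counts per library against 107 to 367 for BCL2L11. MIR4435-2HG had log2 fold changes of -0.61 and -0.60 in the knockout comparisons before and after IR, and as the strandedness of the counting is not given in the sources used here, the reads of the pair cannot be told apart. BIK was the third member without overlap (9.25 and 7.88 against 7.32 and 6.21 normalized CPM; log2 fold change -0.33, SE 0.23, adjusted p = 0.724). These 3 of 10, all lower, stand beside 38.7% of all genes in either direction and 20.2% as lower.

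The other 7 members overlapped between genotypes after IR. BCL2 had 3.62 and 4.98 normalized CPM in control cells and 4.95 and 6.17 in knockout cells, a log2 fold change of 0.36 (SE 0.28, adjusted p = 0.762). MCL1 had 1461 and 1960 against 1359 and 1754, with a log2 fold change of -0.13 (SE 0.21, adjusted p = 0.919). BAX, BAK1, BID, PMAIP1 and BCL2L1 had log2 fold changes between -0.18 and 0.06.

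With the 2 genotype comparisons averaged in 1 fit over all 8 libraries, an analysis chosen after the data were seen, BBC3 had a log2 fold change of -0.77 (SE 0.16, 95% interval -1.12 to -0.42, adjusted p = 0.0128) and was the only member to pass the adjusted p, which 8.68% of 16549 genes passed, 5.46% as lower. No member reached 2-fold, and 3.40% of genes were called. BCL2L11 had -0.50 (SE 0.17, adjusted p = 0.101) and BCL2 had 0.52 (SE 0.20, adjusted p = 0.153). BBC3 was lower in knockout cells in 2 of 2 libraries at both treatments. The share of all genes that were so at both treatments was not computed. Taken singly, it was 23.9% before and 20.2% after IR. BBC3 made up 19.0% ± 0.722 of the summed normalized RPKM of the 5 BH3-only genes in untreated control cells and 12.8% ± 1.12 in untreated knockout cells. After IR it made up 23.5% ± 0.437 in control and 18.3% ± 1.15 in knockout cells.

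After IR the p53-linked members BAX, BBC3 and PMAIP1 had higher levels than before it in both genotypes, without passing the test within either. None of the 10 genes was called in control cells (3.59% of 15412 genes were) or in knockout cells (3.11% of 15598), by edgeR or by DESeq2, and no member passed the adjusted p alone (5.72% of genes in control and 5.67% in knockout cells did). With replicate A of 1 treatment paired with B of the other, a fit added after the data were seen, 1 member passed it in control cells and 3 in knockout cells. Without pairs, 1 member in control cells and 3 in knockout cells had an unadjusted p under 0.05, beside 25.4% and 29.6% of all genes. The median log2 fold change of the members was 0.24 in control cells and 0.14 in knockout cells, beside 0.02 and -0.01 over all genes. For 9 of 10 genes in each genotype the 95% interval lay inside a 2-fold change.

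BAX had 204 and 170.2 normalized CPM in control cells after IR against 128 and 157.0 before, and 197 and 159 against 123 and 147 in knockout cells. It was higher after IR in both genotypes without overlap, with a log2 fold change of 0.39 in each (SE 0.17 and 0.17, adjusted p = 0.188 and 0.161). BBC3 was likewise higher in both, by a log2 fold change of 0.45 (SE 0.21, adjusted p = 0.210) in control cells and 0.68 (SE 0.24, adjusted p = 0.104) in knockout cells. PMAIP1 had 5.30 and 8.62 normalized CPM in control cells after IR and 7.11 and 7.54 in knockout cells after IR. These lay above the untreated libraries of the same genotype, with log2 fold changes of 0.59 (SE 0.30, adjusted p = 0.232) and 0.39 (SE 0.25, adjusted p = 0.315). Leaving out 1 library moved PMAIP1 between 0.18 and 0.90 in control and between 0.17 and 0.68 in knockout cells, BAX between 0.23 and 0.55 and between 0.24 and 0.55, and BBC3 between 0.35 and 0.56 and between 0.41 and 1.01. PMAIP1 passed the adjusted p alone without replicate A of control cells after IR (adjusted p = 0.0153), and BAX without replicate B of that group (adjusted p = 0.0225). BAX, BBC3 and PMAIP1 were the members whose irradiated libraries all lay above the untreated ones in both genotypes. The share of all genes that did so in both genotypes was not computed. Taken singly, it was 29.5% in control cells and 32.6% in knockout cells. The genes of chromosome 19, which holds BAX and BBC3, had a median of -0.23 in control and -0.22 in knockout cells. With the trends in GC content and length removed, the log2 fold changes after IR were 0.87 and 1.04 for BBC3 and 0.63 and 0.60 for BAX in control and knockout cells.

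No other member lay above its untreated libraries in both genotypes. BAK1 had log2 fold changes of 0.11 in both genotypes, BID of -0.12 and -0.01, and BIK of 0.12 and 0.09. BCL2L11 had 0.37 (SE 0.26, adjusted p = 0.390) in control cells, without overlap, and -0.09 (SE 0.24, adjusted p = 0.814) in knockout cells. MCL1 had 0.19 (SE 0.19, adjusted p = 0.548) in control cells and 0.45 (SE 0.18, adjusted p = 0.136) in knockout cells, where the groups did not overlap. Without 1 library it ran from -0.04 to 0.40 in control cells (adjusted p = 0.00734 without replicate A after IR) and from 0.27 to 0.66 in knockout cells (adjusted p = 0.0299 without untreated replicate A and 0.043 without replicate A after IR). BCL2L1 had 0.28 and 0.17, and BCL2 had -0.02 and -0.36. In each genotype 5 of 10 genes lay above the untreated libraries without overlap and none below, beside 57.1% of genes in either direction in control (29.5% higher) and 62.1% in knockout cells (32.6% higher).

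Averaged over both genotypes in 1 fit of all 8 libraries with no replicate block, chosen after the data were seen, BAX rose by a log2 fold change of 0.40 (SE 0.12, adjusted p = 0.0347) and BBC3 by 0.58 (SE 0.16, adjusted p = 0.0241). PMAIP1 (0.51, SE 0.20, adjusted p = 0.0735) and MCL1 (0.33, SE 0.13, adjusted p = 0.0818) did not pass. These 2 of 10 members stand beside 28.4% of all genes at the same adjusted p, 14.9% as higher. No member reached a 2-fold change in this fit, and 7.07% of all genes were called. With the replicate letter as a block BAX no longer passed (adjusted p = 0.0622), and BBC3 had 0.0436.

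The difference in IR response between the genotypes was tested for each member as an interaction over the 8 libraries. None of the 10 passed, with every adjusted p at 1 in edgeR, none by DESeq2, and none at an unadjusted p under 0.05. The same test passed 0 of 16549 genes (0% called), of which 306 (1.85%) had an unadjusted p under 0.05. The largest member difference was BCL2L11, at -0.45 (SE 0.34, 95% interval -1.20 to 0.29), followed by BCL2 at -0.34 (SE 0.40) and MCL1 at 0.27 (SE 0.27). For BBC3 it was 0.23 (SE 0.32, 95% interval -0.47 to 0.93). For 7 members the interval lay inside a 2-fold difference, and for PMAIP1, BCL2L11 and BCL2 it did not.

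**Figure D4:**
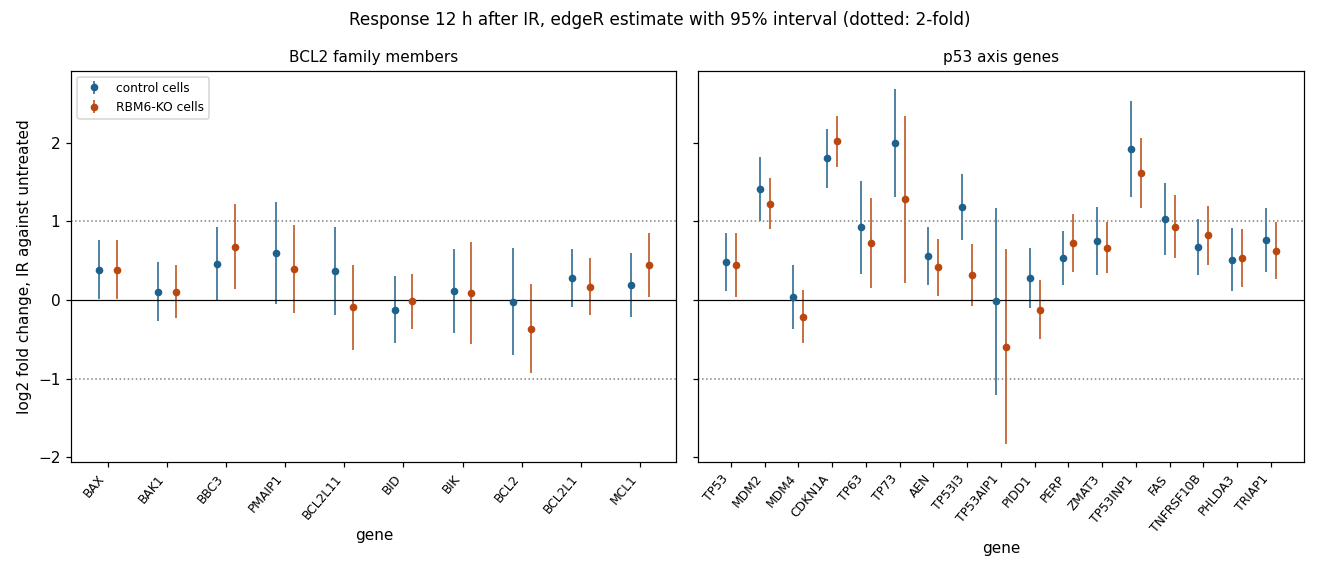
Log2 fold change 12 h after IR (points, edgeR) with 95% intervals (lines) in control and knockout cells, for the 10 BCL2 family genes (left) and the genes of the p53 axis list (right); dotted lines mark a 2-fold change. All 20 points of the family lie between the dotted lines, and CDKN1A, MDM2, TP53INP1 and TP73 lie above the upper one in both genotypes.

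Genes of the pathway outside the 10 members were described from lists that were chosen with earlier results of these data known. In the p53 axis list, 6 of 17 tested genes were called after IR in control cells and 3 of 17 in knockout cells, all higher. Of all tested genes, 3.59% and 3.11% were called in these comparisons in either direction. The median log2 fold change of the list was 0.75 in control and 0.66 in knockout cells. CDKN1A, the p53-induced cell cycle inhibitor p21, rose from a mean of 458 to 1608 normalized CPM in control cells (log2 fold change 1.80, SE 0.17, adjusted p = 0.000536) and from 392 to 1607 in knockout cells (2.02, SE 0.14, adjusted p = 0.00051). MDM2, the ubiquitin ligase that restrains p53, rose by log2 fold changes of 1.41 and 1.23, and TP53INP1 by 1.92 and 1.62. TP73, TP53I3 and the death receptor gene FAS were called in control cells only (log2 fold changes 1.999, 1.18 and 1.03, beside 1.28, 0.32 and 0.93 in knockout cells), and no gene of the list passed the interaction test. Between genotypes, 0 of 17 were called before IR and 0 of 16 after IR.

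Downstream of the mitochondrion, 1 of 18 tested genes was called in each IR comparison, beside 3.59% of all genes in control and 3.11% in knockout cells. BIRC5, which encodes the mitosis-linked caspase inhibitor survivin, fell by log2 fold changes of -1.15 (SE 0.18, adjusted p = 0.00691) in control and -1.501 (SE 0.18, adjusted p = 0.00549) in knockout cells. None of the 18 was called between genotypes by edgeR or DESeq2, with 3 genes before IR and 1 after IR at an unadjusted p under 0.05, beside 18.4% and 11.1% of all genes. The genes of the list past the adjusted p alone, named after their values were seen, were BIRC3, an inhibitor of apoptosis protein (log2 fold change 0.56, adjusted p = 0.0466, in untreated knockout against control cells, and -0.69, adjusted p = 0.0451, for IR in knockout cells), and CASP8, the caspase of death receptors (0.86, adjusted p = 0.0338, for IR in control cells). In the wider BCL2 family, 9 of 13 genes were tested and none was called in any comparison by either tool. Of these 9, 2 and 1 had an unadjusted p under 0.05 between genotypes before and after IR, and 2 and 6 in response to IR in control and knockout cells, beside 18.4%, 11.1%, 25.4% and 29.6% of all genes. BCL2L12, named after its values were seen, passed the adjusted p alone in knockout cells after IR (log2 fold change -0.85, adjusted p = 0.0354). Among 11 regulators of the family, E2F1, a cell cycle transcription factor, was the 1 gene called, lower after IR in knockout cells (log2 fold change -1.36, SE 0.20, adjusted p = 0.012), beside -0.95 (SE 0.24, adjusted p = 0.0428) in control cells. Before IR it was higher in knockout cells, by a log2 fold change of 0.64 (adjusted p = 0.0459), and its interaction was -0.41 (SE 0.30, adjusted p = 1). The other regulators past the adjusted p alone, named after their values were seen, were STAT3 (-0.55, adjusted p = 0.0261, in untreated knockout against control cells), ATF4 for IR (-0.67, adjusted p = 0.0443, in control and -0.65, adjusted p = 0.0488, in knockout cells) and MYC for IR in knockout cells (0.77, adjusted p = 0.0378).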

How the data were processed

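Total RNA from 8 samples was sequenced with a TruSeq mRNA kit as paired-end reads. The values deposited by the authors are raw counts for each Ensembl gene, not normalized, from reads aligned to hg38. STAR and DESeq2 stand in the submitters' processing notes, and the counting tool, annotation version and strandedness are not given in the sources used here. Reads over exons shared by overlapping genes, and reads of near-identical copies, could be split or lost by the counting. BAK1 has 2 processed pseudogenes in the table, with at most 27 counts in a library against at least 819 for BAK1.

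Symbols, positions and exon lengths came from GENCODE v44, which holds 57392 of the 58233 identifiers, and all 10 members matched. Tests were run with edgeR 4.0.16 in R 4.3.3 (quasi-likelihood test, TMM normalization, filterByExpr), each comparison on its own 4 libraries and the interaction on all 8, with Benjamini-Hochberg adjustment over all tested genes. Standard errors (SE) were obtained from each log2 fold change and the square root of its F statistic, as their ratio. Normalized RPKM is normalized CPM per kilobase of merged exons. Replicates are separate biological samples per the paper, and replicates of a group differed by far more than sampling noise (chi-square per gene 11.3 to 34.1). With 2 libraries per group no exact permutation test could reach 0.05, so p-values come from the fits, which share the spread across genes. DESeq2 1.42.0 and other normalizations, filters and fits were alternatives. The 10 members and the gene lists were chosen with earlier results of these data known. All members are described. A gene of the other lists was named only where it was called in at least 1 comparison, with the exceptions stated. Some cell type markers were named after their values were seen. A leave-one-out fit keeps 1 library in a group, which is assumed to vary like the others. All 8 columns were used. Some single genes of the lists are not reported here.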

Additional observations from a re-analysis of the deposited data

How the results depend on the processing

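The precision was set by 2 libraries per group, and the rarest member had 56 counts in 1 library. No member was called by edgeR in any comparison, and this count of 0 became 1, BBC3 in untreated knockout against control cells, with the adjusted p alone; leaving out each library gave 0 to 1 there. Of 700 member values recomputed under all alternatives, 634 counted as the same and 10 moved. Of the others, 1 (BBC3, as above) became called and 55 turned direction. The same means an unchanged direction and an unchanged call, so crossing the adjusted p limit alone, as MCL1 did without the filter, still counts. The 40 values with the GC and length trends removed had no test. Of these, 24 kept their direction and lay within the SE, 10 moved further and 6 turned. None of the other values that turned was called.

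Removal of the GC and length trends turned BAX (0.077), BAK1 (0.020) and BCL2L1 (0.103) in untreated and BAX (0.095), BAK1 (0.053) and PMAIP1 (-0.18) in irradiated knockout against control cells. It also raised the IR response of BBC3 to 0.87 in control and 1.04 in knockout cells, and that of BAX to 0.63 and 0.60. Without a filter BCL2 after IR in control cells was 0.035, and BID after IR in knockout cells was 0.021, beside 0.017 by DESeq2, and 0.0014 with all 8 libraries in 1 fit. BCL2L11 after IR was 0.15 when averaged over genotypes, which includes control cells. The interactions of BAX and BAK1 were -0.015 and -0.012 with no filter and -0.0053 and -0.0042 with at least 10 counts in every library. The cause was not tested.

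Leaving out each library turned the following log2 fold changes. In untreated knockout against control cells BAX ranged from -0.24 to 0.079, PMAIP1 from -0.026 to 0.47, BIK from -0.76 to 0.019 and BCL2L1 from -0.22 to 0.014. After IR in the same comparison BAX ranged from -0.23 to 0.077, BAK1 from -0.24 to 0.031, PMAIP1 from -0.24 to 0.46, BID from -0.32 to 0.088 and MCL1 from -0.34 to 0.090. For IR in control cells BAK1 ranged from -0.022 to 0.24, BID from -0.33 to 0.072, BCL2 from -0.30 to 0.31 and MCL1 from -0.041 to 0.40. For IR in knockout cells BCL2L11 ranged from -0.27 to 0.12, BID from -0.053 to 0.049 and BIK from -0.26 to 0.54. For the interaction BAX ranged from -0.16 to 0.15, BAK1 from -0.10 to 0.15, BBC3 from -0.041 to 0.55, PMAIP1 from -0.49 to 0.25, BID from -0.052 to 0.33, BIK from -0.37 to 0.42 and BCL2L1 from -0.24 to 0.070.

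The labels do not say that the replicate letters mark shared cultures, and with 2 libraries per group the letters were not taken as pairs. The A minus B differences correlated at 0.149 (untreated) and 0.547 (after IR) between the genotypes and from -0.435 to -0.175 between treatments. With the replicate letter as a block, 0 members were called in any comparison, BBC3 after IR passed the adjusted p alone (0.0048), as did BCL2L11 (0.0143), and genes called after IR between genotypes rose from 182 to 541. The letters were also crossed for the IR comparisons, a fit added after the data were seen. There 965 genes in control and 1222 in knockout cells were called, beside 637 and 646 with the block, and 0 members in each. By the adjusted p alone, 1 member in control cells and 3 in knockout cells passed with the letters crossed, and 0 in each with the block. In the averaged fits with the block, BBC3 had an adjusted p of 0.0296 for genotype and 0.0436 for IR, and BAX no longer passed for IR (0.0622). The block in these fits is 1 term shared by all 8 libraries. It cannot remove a letter difference that reverses between treatments, so these values do not check for one. With the longest transcript as the length, 30 of 40 group levels per length moved by more than the spread between replicates.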
